A study of Oryza sativa Indica Group with 8 samples.

Results

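The regions described here are the long members of a list of rice loci that the authors deposited as new miRNA loci, called predicted loci below. A predicted locus was taken as long when its end minus its start was 80 or more, and 260 of the 1016 predicted loci (25.6%) met that rule. The other 756 are called the remaining loci. The study sequenced small RNA from rice panicles, the branched flower and grain heads, in 8 libraries. The libraries cover the genotypes Basmati370, KolaJoha, ThururBhog and IC463254, all labelled as Indica group. Each genotype was sampled at nitrogen marked low and at nitrogen marked rec. Each combination has 1 library, which gives 4 libraries per level. The labels give neither the plants behind a library nor the nitrogen dose. The series' text says that a japonica rice served as reference, so the loci are positions in another subspecies group than the one the labels give for the plants.

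The per-library counts of the loci are not used here, because the names of their columns match none of the labelled samples. No count, level or nitrogen response of a locus is therefore given, and the results are the lengths and positions of the loci and their distances to each other and to known miRNAs. The loci are sites on a reference and not replicates of a condition. Shares of long and remaining loci are set side by side as descriptions, without a test, and no difference between them is called. The base sequences, the strand and any overlap with genes were not analysed here.

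In plants, a miRNA is cut from a hairpin, a stretch of RNA that folds back on itself, by the Dicer-like enzyme DCL1 in the nucleus. The mature miRNA comes from an arm of the stem, is loaded into an Argonaute protein and guides the cleavage or translational repression of matching transcripts. Plant hairpins vary more in length than animal ones, and related miRNAs can lie next to each other where a locus has been duplicated. In rice, known miRNAs act on transcription factors of panicle branching and on genes of nutrient uptake.

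The long loci filled a narrow range. Since length chose them, their lengths are a description. They ran from 80 to 99 bases, with a median of 85 and a mean of 85.3 ± 3.73 (SD, n = 260), while the remaining loci ran from 36 to 79 with a median of 61. The most common length was 84, with 33 loci, followed by 80 and 85 with 27 each. Of the long loci, 237 (91.2%) measured 80 to 90 and 23 (8.85%) measured 91 or more. The edge of the rule cut through a filled part of the list, since 14 loci measured 79, 14 measured 78 and 27 measured 80. The row names do not say from which base the start is counted, so a true length could be larger by 1 base, and loci listed at 79 would then measure 80.

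**Figure D1:**
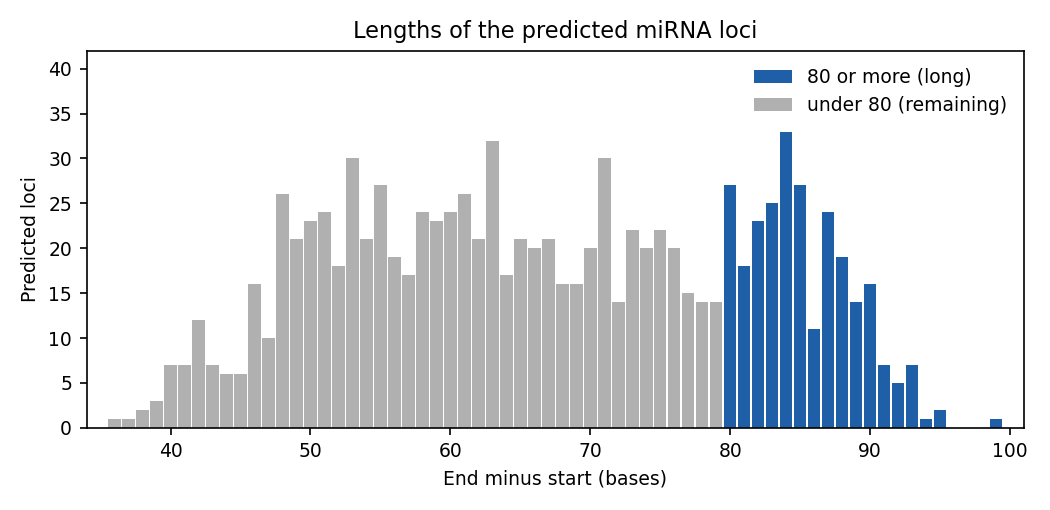
Number of predicted loci (vertical axis) at each end minus start in bases (horizontal axis), for all 1016 loci, with the 260 long loci in blue. The counts stay high up to 90 bases, where 16 loci stand, and 23 loci are longer.

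The longest locus lay on chromosome 4 from 20208829 to 20208928 and measured 99 bases. It was followed by loci of 95 bases on chromosome 1, starting at 31360684, and on chromosome 2, starting at 3510882. A locus of 94 bases on chromosome 8 started at 23748948. A further 7 loci measured 93 bases, 3 of them on chromosome 1. The shortest long loci were the 27 at exactly 80 bases.

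Long loci occurred on all 12 chromosomes, which held 257 of them. The other 3 lay on further sequences of the reference and measured 80, 84 and 84 bases. Chromosome 11 held the most, with 34 long and 71 remaining loci, so that 32.4% of its predicted loci were long. Chromosome 1 held 30 of 111 (27.03%) and chromosome 5 held 24 of 79 (30.4%). The lowest share was on chromosome 2, with 18 of 92 (19.6%), and the share over the 12 chromosomes was 25.4%. Chromosome 10 held the fewest long loci, 12, but also the fewest predicted loci, 41, and its share was 29.3%.

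Measured against the stretch between the first and the last predicted locus of a chromosome, long loci stood at 0.710 per Mb on the whole and remaining loci at 2.08 per Mb. Chromosome 11 had 1.21 long loci per Mb and chromosome 4 had 0.430, the highest and lowest of the 12. For the remaining loci the highest density was on chromosome 6, with 2.80 per Mb, and the lowest on chromosome 10, with 1.32 per Mb. Chromosome 6 had 0.776 long loci per Mb and 106 predicted loci in all, of which 21.7% were long. Chromosome 11 thus led in the density of long loci and came after chromosomes 6 and 12 in the density of remaining loci, which were 2.52 per Mb on chromosome 11 and 2.62 per Mb on chromosome 12. The median length of the long loci ran from 82 bases on chromosome 8 to 88 on chromosomes 1 and 4. Over all long loci the quartiles were also 82 and 88.

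**Figure D2:**
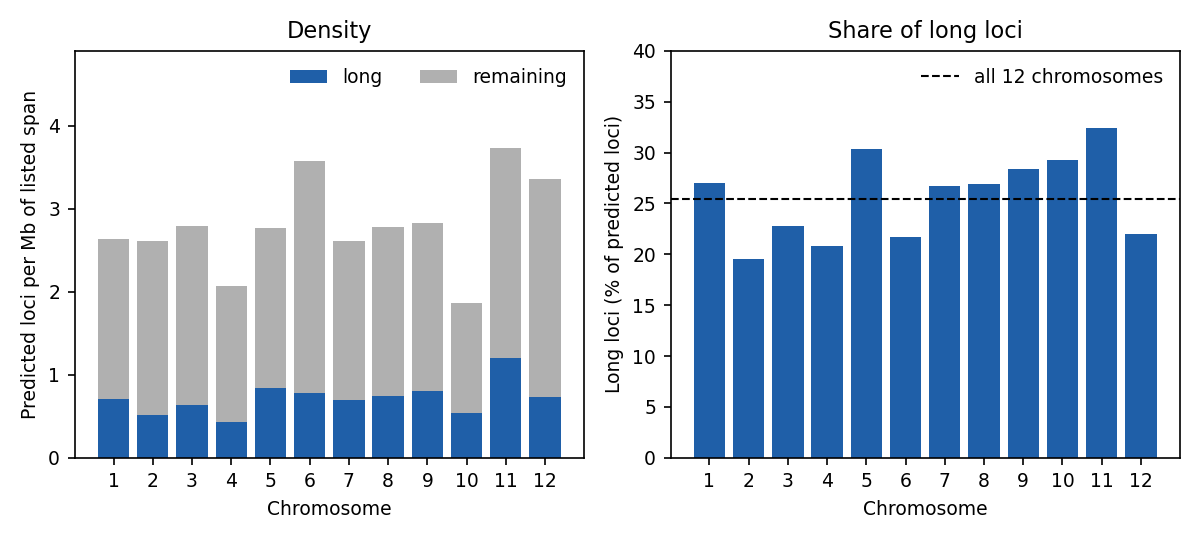
Left, predicted loci per Mb (vertical axis) on each chromosome (horizontal axis), stacked as long (blue) and remaining (grey) loci; right, long loci as a percentage of all predicted loci of the chromosome, with the value of the 12 chromosomes together, 25.4%, as a dashed line. Chromosome 11 has the tallest blue bar on the left, 1.21 per Mb, and the tallest bar on the right, 32.4%.

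Spacing between consecutive long loci was wide and uneven. The median of the 245 gaps was 931 kb, and the middle part of the gaps, between the quartiles, ran from 343 to 1722 kb. The smallest gap was 84 bases and the largest 10.6 Mb, on chromosome 2 between 24706597 and 35291032. That stretch was not empty, since 19 remaining loci lay inside it. The same was seen on chromosome 4, where 12 remaining loci lay in the 7.71 Mb without a long locus between 5532689 and 13242444. On chromosome 11, the long loci left a gap of 7.01 Mb between 17167770 and 24178159 that held 15 remaining loci. In each of the 12 chromosomes the longest such gap held at least 4 remaining loci.

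The end of that gap on chromosome 11 was also where long loci were densest. From 24178159 to 25081985, a stretch of 904 kb, 7 of the 19 predicted loci were long, the highest number in any stretch of 1 Mb that starts at a long locus. Within 100 kb the highest number was 4, on chromosome 12 from 24279665 to 24379238, where 10 predicted loci lay in 99.6 kb. Chromosome 5 had 5 long among 7 predicted loci from 6038149 to 6562052, and chromosome 6 had 4 long among 5 from 28297765 to 28545014. These stretches were picked as the densest, so their counts describe them and support nothing further.

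Most long loci stood alone. Another predicted locus lay within 10 kb, counted between the facing ends, for 46 of the 260 long loci (17.7%) and for 114 of the 756 remaining loci (15.1%). With the limit for long loci at 85 bases the order turned, with 14 of 134 (10.4%) against 146 of 882 shorter loci (16.6%). Within 1 kb the counts were 20 (7.69%) and 34 (4.50%), and within 50 kb they were 92 (35.4%) and 272 (35.98%). The median distance to the nearest predicted locus was 91.5 kb for long loci and 99.5 kb for remaining loci on chromosomes 1 to 12. The nearest neighbour of the 46 long loci was itself long in 14 cases, measured 56 to 79 bases in 22 and measured 55 or less in 10. In the whole list, 25.6% of loci were long, 48.03% measured 56 to 79 bases and 26.4% measured 55 or less.

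Joined at gaps of up to 10 kb, the predicted loci formed 68 runs of at least 2 loci, and 35 of these runs held a long locus. The 68 runs held 160 loci, of which 46 (28.8%) were long. Exactly 1 long locus was present in 24 runs and exactly 2 in 11 runs, and no run held 3. Runs with a long locus spanned from 150 to 20821 bases, with a median of 4858. Chromosome 11 had 7 such runs, with 10 of its 34 long loci in them (29.4%). On chromosome 10 it was 4 of 12 (33.3%) and on chromosome 5 it was 7 of 24 (29.2%). On chromosome 2 it was 1 of 18 (5.56%) and on chromosome 7 it was 1 of 20 (5.0%). The same shares are not given for the remaining loci of each chromosome, so these values do not set the long loci apart.

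The 11 runs with 2 long loci were of different make. Of these, 7 consisted of the 2 long loci alone. On chromosome 5 there were 3 of them. The first joined loci from 6038149 to 6038229 and from 6039338 to 6039427, of 80 and 89 bases. The second joined loci from 14101077 to 14101162 and from 14101445 to 14101528, of 85 and 83 bases. The last joined loci from 17700013 to 17700093 and from 17707681 to 17707761, of 80 bases each. Chromosome 5 therefore had 6 of its 7 clustered long loci in pairs with no shorter locus.

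Another such pair lay on chromosome 9, where loci of 81 and 80 bases ran from 6636491 to 6636572 and from 6637416 to 6637496. On chromosome 10, a pair of 84 bases each ran from 5066366 to 5066450 and from 5075430 to 5075514. Chromosome 11 had a pair of 83 and 82 bases, from 24456057 to 24456140 and from 24465259 to 24465341. It also had the closest of these pairs, of 80 and 81 bases, from 26585877 to 26585957 and from 26586041 to 26586122, with 84 bases between them. The gaps of the 7 pairs thus ran from 84 to 9119 bases.

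The other 4 runs with 2 long loci also held shorter loci. On chromosome 3, long loci from 27633993 to 27634077 (84 bases) and from 27636431 to 27636518 (87 bases) lay in a run of 5, together with loci of 41, 42 and 58 bases. On chromosome 12, long loci from 24315088 to 24315173 (85 bases) and from 24323493 to 24323576 (83 bases) lay in a run of 5 with loci of 62, 62 and 75 bases. In the remaining cases the long loci stood at more than 10 kb from each other and were joined by loci between them. These were a run of 4 on chromosome 10, whose long loci ran from 11842636 to 11842716 (80 bases) and from 11861905 to 11861986 (81 bases), and a run of 5 on chromosome 11, whose long loci ran from 24765850 to 24765932 (82 bases) and from 24783535 to 24783618 (83 bases).

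**Figure D3:**
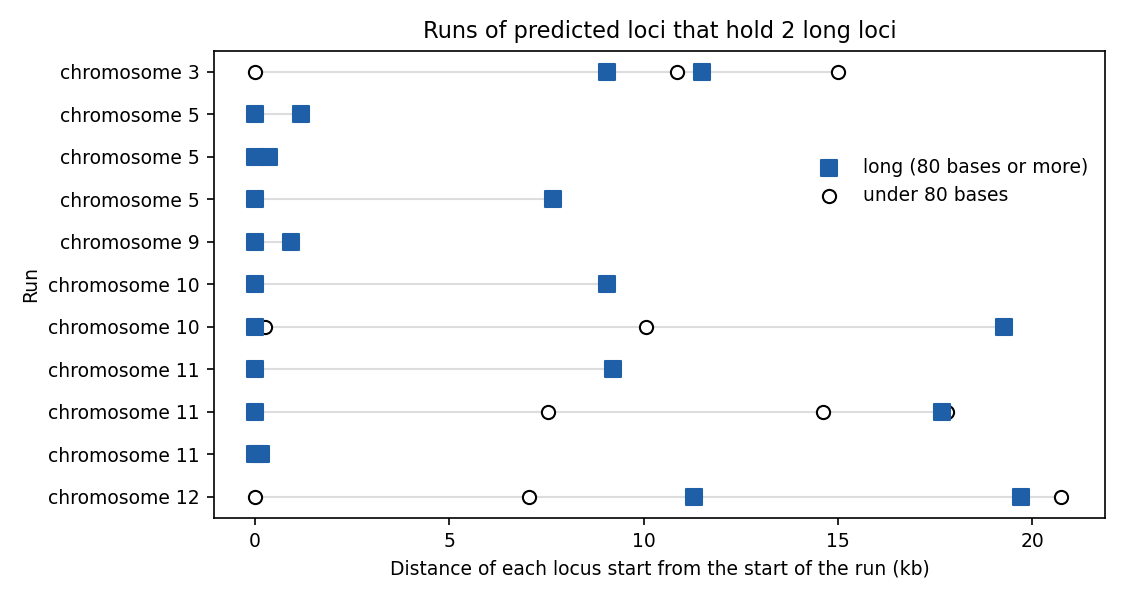
The 11 runs that hold 2 long loci, one per line with its chromosome; the horizontal axis gives the distance of each locus start from the first start of the run in kb, squares are long loci and open circles are loci under 80 bases. In 7 runs there are squares alone, and the longest run, on chromosome 12, spans 20821 bases.

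Close pairs of long loci were compared in length. There were 9 pairs of consecutive long loci at most 10 kb apart, holding 18 long loci. Counted by locus, 18 of the 260 long loci (6.92%) and 38 of the 756 remaining loci (5.03%) had a long locus within 10 kb. In 8 of them the lengths differed by 3 bases or less, and 2 pairs, on chromosomes 5 and 10, had equal lengths. The exception was the pair of 80 and 89 bases on chromosome 5. Among all 245 consecutive long loci on chromosomes 1 to 12, whatever their distance, 133 (54.3%) differed by 3 bases or less. The limit of 3 bases was chosen after the lengths had been seen, and with 9 pairs no difference is called.

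Very close neighbours, at most 200 bases apart, made 14 pairs in the whole list, and 9 of these included a long locus. Counted by locus, 10 of the 260 long loci (3.85%) and 18 of the 756 remaining loci (2.38%) had such a neighbour. In 8 of the 9 pairs the partner measured under 80 bases. In the list 756 of the 1016 loci did, but that is a share of single loci. The 9 pairs were picked for holding a long locus, so the shares are not alike. No difference is called from these counts. The tightest of the 9 was on chromosome 3. There a locus of 58 bases from 3904507 to 3904565 was followed after 2 bases by a long locus of 90 bases. The long locus ended at 3904657, so that both together covered 150 bases. On chromosome 2, a locus of 71 bases ended at 22840156, 14 bases before a long locus of 84 bases from 22840170 to 22840254. Chromosome 8 had the same spacing of 14 bases between a locus of 71 bases ending at 17084783 and a long locus of 83 bases from 17084797 to 17084880. The 9 pairs covered 150 to 322 bases from end to end. The list gives no strand or fold, so whether a close pair is a single hairpin listed in pieces, or separate hairpins, was not tested.

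The authors listed 1233 alignments of 285 known miRNAs. Of the predicted loci, 2 overlapped a known alignment, and both of these loci were long. The list was deposited as new loci, and the sources used here do not state whether sites of known miRNAs were left out of it. The known miRNAs carry RNAcentral identifiers, which the files do not pair with miRNA names. On chromosome 11, URS000049728D, aligned on the minus strand from 6404255 to 6404275, lay inside the long locus from 6404197 to 6404279. It began 58 bases from the start of the 82-base locus and ended 4 bases before its end. On chromosome 7, URS0000335BA0 was aligned on the plus strand from 22061925 to 22061959 in the long locus from 22061919 to 22062006. That alignment spans 35 bases and its identifier has 5 alignments, whereas URS000049728D spans 21 bases and has 1 alignment. It began 6 bases from the start and left 47 bases to the end. In printed positions it lay near the start of its locus, and the first alignment near the end. The alignments are on opposite strands, so read along its own strand each lay nearer the beginning of its locus. The strand of the loci is not listed, so the hairpin arm was not tested. None of the 756 remaining loci overlapped a known alignment. The nearest, of 79 bases on chromosome 11 from 6404073 to 6404152, ended 103 bases before the same alignment of URS000049728D. Within 1 kb of a known alignment lay 4 long loci (1.54%) and 9 remaining loci (1.19%).

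The locus around URS000049728D belonged to a run of 3 that spanned 9078 bases. A locus of 79 bases, just under the limit, lay 45 bases before it from 6404073 to 6404152. Another locus, of 78 bases, followed 8794 bases after it, from 6413073 to 6413151. This was a run in which the rule for long loci kept 1 of 3 members whose lengths span 78 to 82 bases.

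Shares of loci near known miRNAs were set side by side over wider distances. A known alignment lay within 10 kb of 15 long loci (5.77%) and of 42 remaining loci (5.56%), and within 50 kb of 61 (23.5%) and 192 (25.4%). The median distance to the nearest known alignment was 120 kb for long loci and 132 kb for remaining loci on chromosomes 1 to 12. Some known miRNAs align to many places. Of the 15 long loci, 5 had URS000038C249 as the nearest known miRNA, an identifier with 352 of the 1233 listed alignments. The same count is not given for the 42 remaining loci, so the 5 do not set the long loci apart. With known miRNAs of a single alignment alone, 3 long loci (1.15%) and 7 remaining loci (0.926%) had a known miRNA within 10 kb.

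**Figure D4:**
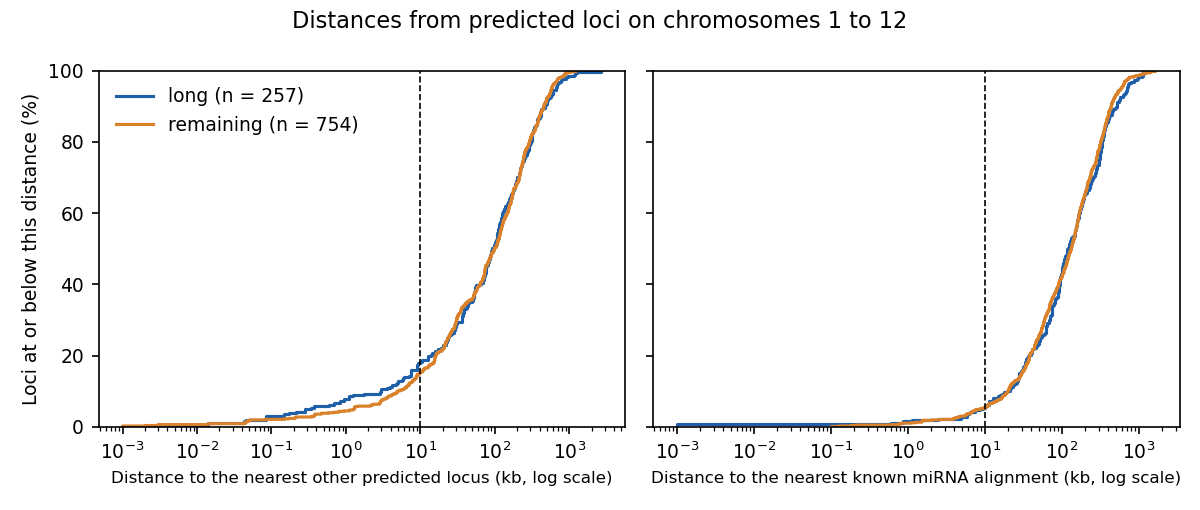
Percentage of loci (vertical axis) whose nearest other predicted locus (left) or nearest known miRNA alignment (right) lies at or below the distance on the horizontal axis (kb, log scale), for 257 long and 754 remaining loci on chromosomes 1 to 12; the dashed line marks 10 kb and overlaps are drawn at the left edge. The curves run close together. Over all 260 long and 756 remaining loci, with those off chromosomes 1 to 12 included, 17.7% and 15.1% had another predicted locus within 10 kb.

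Outside the loci that overlap a known alignment, the nearest long locus to one was the 95-base locus on chromosome 2 from 3510882 to 3510977. It lay 609 bases before URS0000546A73, a 21-base alignment from 3511586 to 3511606 on the minus strand of an identifier with 2 alignments. The next was the 94-base locus on chromosome 8 from 23748948 to 23749042, 865 bases after an alignment of URS000038C249 from 23748062 to 23748083. On chromosome 4, the 81-base locus from 13242444 to 13242525 lay 1123 bases before URS0000045204. On chromosome 6, the 93-base locus from 25317580 to 25317673 lay 2492 bases before URS0000258DCD, which has 15 alignments.

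Within the long loci, the share with neighbours was also counted by length. Another predicted locus lay within 10 kb of 32 of the 126 loci of 80 to 84 bases (25.4%), of 11 of the 95 loci of 85 to 89 bases (11.6%) and of 3 of the 39 loci of 90 bases or more (7.69%). For nearness to a known miRNA, the first classes were about level and the longest was higher, on few loci. A known alignment lay within 10 kb of 5 of the 126 (3.97%), 4 of the 95 (4.21%) and 6 of the 39 (15.4%). Of these 6, the loci of 90, 93 and 94 bases on chromosomes 7, 11 and 8 were nearest to URS000038C249, which holds 352 of the 1233 known alignments. The others were nearest to identifiers with 2 or 15 alignments. Shares also differed between classes of shorter loci. Another predicted locus lay within 10 kb of 25.6% of the 39 loci of 40 to 44 bases and of 8.86% of the 79 loci of 45 to 49 bases, and a known alignment within 10 kb of 10.9% of the 110 loci of 55 to 59 bases and of 1.89% of the 106 loci of 70 to 74 bases. Members of a run were counted each, so the 32 loci were not independent of each other, and no difference between classes is called.

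**Figure D5:**
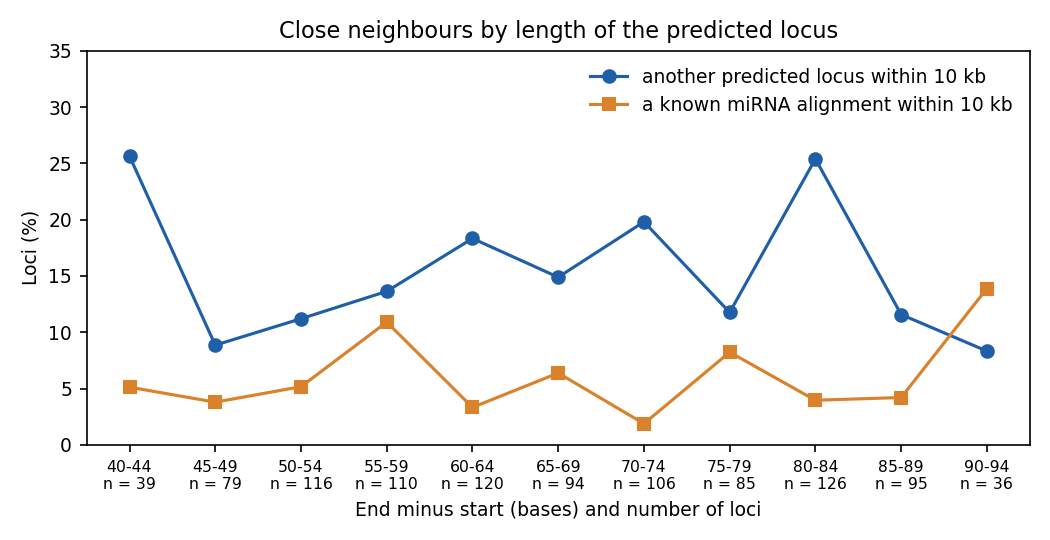
Percentage of predicted loci (vertical axis) with another predicted locus within 10 kb (circles) or a known miRNA alignment within 10 kb (squares), by class of end minus start in bases (horizontal axis, with the number of loci; classes of under 20 loci are left out). The class of 80 to 84 bases reaches 25.4% for predicted neighbours, about level with the 25.6% of the class of 40 to 44 bases, and the class of 90 to 94 bases reaches 13.9% for known neighbours.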

How the data were processed

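Files deposited by the authors were 1 annotation that places known miRNAs and 2 tables, over known miRNAs and over predicted loci. Tools in the submitters' processing notes are fastp, Bowtie, Subread and bedtools. Their roles and versions, the build and the method of prediction are not stated in the sources used here. The 16 per-library columns match no label of the 8 samples and were not used, so depth is not reported here and no test of nitrogen or genotype was run. Per the file headers, the values used are positions. Those of predicted loci come from the row names, and those of known miRNAs from transcript lines of the annotation, which were assumed to share a build. Distances are the later start minus the earlier end. Runs join loci at most 10 kb apart. Chromosome lengths were not at hand, so densities use the span between the outermost predicted loci.

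Positions are given for the longest loci, those in runs with 2 long loci, the tightest pairs and those nearest a known miRNA; the shortest loci, tied in length, are given as a count, and those off chromosomes 1 to 12 by length alone. Members and lists were chosen with earlier results of these data known; the length classes, densest stretches and close pairs were described after the positions had been seen. The counting of neighbours was tested on simulated data. The software was Matplotlib 3.10.9, SciPy 1.17.1, NumPy 2.4.6 and Python 3.11.15.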

Additional observations from a re-analysis of the deposited data

How the results depend on the processing

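With 75 in place of 80 bases the long loci numbered 345 and with 85 they numbered 134; chromosomes 1 to 12 alone held 257. Their share of the predicted loci was 25.6%, and an exact 95% interval ran from 22.9 to 28.4. That interval takes loci as independent draws, although the whole list was used and 160 loci lay in 68 runs. It therefore measures no spread between plants or libraries. With neighbours within 10 kb counted as 1, the share with a long locus was 26.9%. Long loci with another predicted locus within 10 kb numbered 46, 20 at 1 kb, 92 at 50 kb and 46 from start to start. With the limit at 85 bases they numbered 14 of 134 (10.4%), against 16.6% of the shorter loci, which turned the order of the shares seen at 80 bases (17.7% against 15.1%) and at 75 (16.2% against 15.5%). Long loci with a long neighbour numbered 18 (6.92%), 6 (2.31%) at 1 kb and 35 (13.5%) at 50 kb. Remaining loci with a long neighbour numbered 38 (5.03%), 14 (1.85%) at 1 kb and 95 (12.6%) at 50 kb. Those near a known alignment numbered 15, 4 at 1 kb, 61 at 50 kb and 3 with single-alignment miRNAs. The 2 overlaps with known miRNAs stayed 2 within 100 bases. No paired analysis was possible because no library was used. How far sequencing depth limits the list of predicted loci was not tested.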
